A study of Mus musculus with 800 samples.

Results

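Basal vomeronasal sensory neurons were divided by which family C receptor genes they expressed, and 60 cells entered the comparison, 15.2% of the single-cell chambers on a chip of 800. They were chosen by their counts of Gnao1, Gnai2, Sox2 and Vmn2r1 to Vmn2r6. A chamber counted as a basal neuron when Gnao1, whose product couples V2R receptors to G protein signalling, had at least 30 counts, Gnai2, which marks apical neurons, had under 30, and Sox2, a gene of supporting cells, had under 10. Of the 66 basal cells found, 16 had at least 10 counts of Vmn2r1 and under 10 of each of Vmn2r2 to Vmn2r6 (Vmn2r1-only cells, 24.2% [14.5–36.4, exact Clopper-Pearson 95% interval]). In 44 cells at least 1 of Vmn2r2 to Vmn2r6 reached 10 counts (Vmn2r2-to-6 cells, 66.7% [54–77.8]), and 6 cells had neither (9.09%). Vmn2r7 was not analysed here. The series is titled for transcriptional instability and the dispersion of vomeronasal receptor genes, and the split by family C is set on its counts.

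All cells came from OMP(GFP/wt) male mice of the strain B6;129P2-Omptm3Mom/MomJ, aged 66 days, so each cell carried 1 Omp allele replaced by GFP and there was no other genotype or treatment. The vomeronasal epithelia of 7 mice were pooled as 3 and 4 animals, and cells positive for GFP and Hoechst and negative for DRAQ7 were sorted. Because GFP was driven by Omp, a gene of mature sensory neurons, the sort favours mature neurons. The sorted cells were captured on 1 Fluidigm C1 chip, with 3′ end sequencing and 5-base molecular identifiers, and 1 count is 1 identifier seen for a gene in a chamber. Which chamber received which pool was not given in the labels, so the 60 cells are 1 sample. No test between groups was possible, no p-values are given, and intervals cover counting error only.

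Basal vomeronasal neurons detect mainly peptide and protein cues through V2R receptors, which belong to the same structural class as the calcium-sensing receptor. Most V2R genes are expressed singly, so that a neuron transcribes a specific V2R, while the family C genes, Vmn2r1 to Vmn2r7, are broadly expressed and accompany the specific receptor as presumed partners. Many basal neurons also transcribe genes of the H2-Mv group, non-classical class I genes of the major histocompatibility complex, whose products are thought to act with V2R receptors in these cells.

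Sequences just upstream of H2-Mv genes are shown because counts of several of these genes differed between the cells described below. Whether these sequences bear on those counts was not tested. The first 3 belong to genes with more counts in cells with Vmn2r6, and the last 3 to genes seen in cells without it. Each run holds the 150 bases before the RefSeq start of the gene on GRCm38.p6, written 5′ to 3′ along the gene, and 9 of the 9 H2-Mv genes in the table matched by symbol. Capitals mark 3 motifs on either strand, which are the CCAAT box (printed as ATTGG where it lies on the opposite strand), the TATA box in the form TATAAA and the core bound by EBF factors, CCCNNGGG.
H2-M10.3 (chr17:36368418-36368567, minus strand): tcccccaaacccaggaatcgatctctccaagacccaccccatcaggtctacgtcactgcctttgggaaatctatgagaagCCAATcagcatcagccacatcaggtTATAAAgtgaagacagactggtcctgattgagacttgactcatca
H2-M10.5 (chr17:36772760-36772909, plus strand): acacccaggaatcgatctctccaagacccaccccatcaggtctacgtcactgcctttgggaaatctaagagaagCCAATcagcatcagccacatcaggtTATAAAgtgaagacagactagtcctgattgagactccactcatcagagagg
H2-M10.1 (chr17:36326151-36326300, minus strand): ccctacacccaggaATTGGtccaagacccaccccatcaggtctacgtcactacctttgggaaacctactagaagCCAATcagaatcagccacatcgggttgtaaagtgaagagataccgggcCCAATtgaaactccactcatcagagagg
H2-M1 (chr17:36672198-36672347, minus strand): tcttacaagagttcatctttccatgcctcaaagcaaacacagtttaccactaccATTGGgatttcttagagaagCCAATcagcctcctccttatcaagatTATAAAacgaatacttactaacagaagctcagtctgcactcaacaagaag
H2-M9 (chr17:36642664-36642813, minus strand): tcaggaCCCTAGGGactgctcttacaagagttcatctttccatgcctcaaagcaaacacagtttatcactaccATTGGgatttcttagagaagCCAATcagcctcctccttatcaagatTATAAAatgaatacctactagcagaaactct
H2-M11 (chr17:36546925-36547074, plus strand): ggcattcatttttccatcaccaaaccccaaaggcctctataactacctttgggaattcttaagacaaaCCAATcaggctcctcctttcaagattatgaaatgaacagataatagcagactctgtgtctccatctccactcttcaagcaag
CCAAT occurred in each of the 6 windows, with a copy whose first base lay 70 to 82 bases before the start, and it occurred in 24.5% of 32851 promoters in windows of the same length. TATAAA was present in H2-M10.3, H2-M10.5, H2-M1 and H2-M9, but these letters were not found in the windows of H2-M10.1 and H2-M11. It occurred in 7.57% of all promoters, and the EBF core, found in H2-M9, in 7.72%. The homeodomain motif TAATTA (in 2.73% of promoters), the E-box CACGTG (4.3%) and the AP-2 motif GCCNNNGGC (9.61%) were not found in the windows of the 9 H2-Mv genes. Over 250 bases, the upstream sequences of H2-M10.3 and H2-M10.5 were 88.8% identical and those of H2-M1 and H2-M9 79.9%, while H2-M10.3 and H2-M9 were 57.2% identical.

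The cells were selected on family C counts, which are therefore given as a description. Vmn2r1 ran from 11 to 82 counts in Vmn2r1-only cells, with a median of 26.5. The 3 lowest of these cells held 11, 11 and 11 counts, and the 3 highest of the cells with neither held 0, 0 and 2. The highest count among Vmn2r2 to Vmn2r6 was 5, 6 and 7 in the 3 Vmn2r1-only cells nearest the limit, and 10, 10 and 11 in the 3 Vmn2r2-to-6 cells nearest it. As background, Vmn2r1 reached 10 counts in 1.1% of apical cells (Gnai2 of at least 30) and in 4% of empty chambers, and Vmn2r6 in 6.99% and 4%.

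The Vmn2r2-to-6 cells were of 2 kinds by Vmn2r6, a division made after the counts were seen. In 25 cells Vmn2r6 was at 11 counts or more with a median of 55 (Vmn2r6-positive cells, 37.9% of basal cells), or 9.41 to 72.2 per 100000 counts of the cell,, and in the other 19 it ran from 0 to 5, with 14 cells at 0 (Vmn2r6-low cells, 28.8%). No cell lay between 5 and 11 counts. Vmn2r6 was also at 0 in 12 of the 16 Vmn2r1-only cells, whose highest count was 2. The plot of family C counts shows the gap, and the Vmn2r1-only and Vmn2r6-low cells are on the same side of it.

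**Figure D1:**
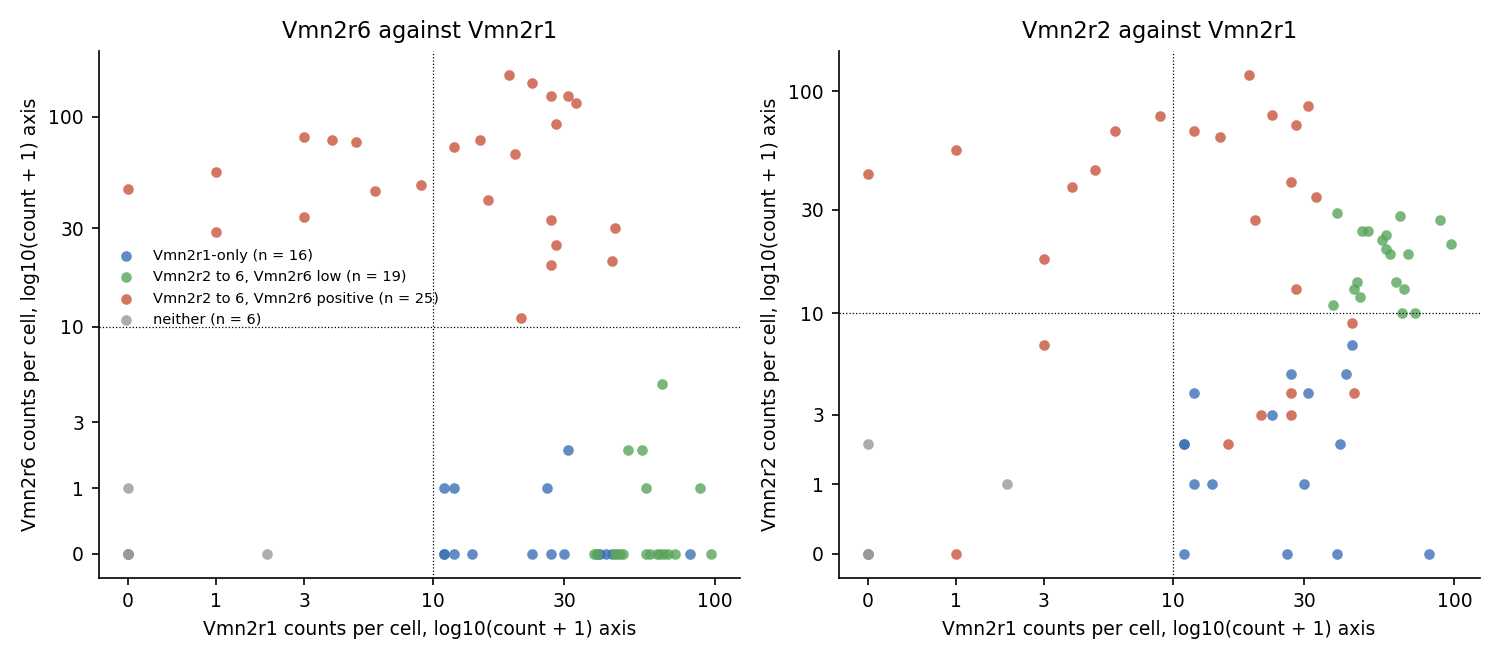
Counts of Vmn2r6 (left) and Vmn2r2 (right) against Vmn2r1 in the 66 basal cells, each point a cell, on log10(count + 1) axes, with dotted lines at 10 counts. The 25 Vmn2r6-positive cells lie at 11 counts of Vmn2r6 or more and the other cells at 5 or fewer, while Vmn2r2 runs without a gap.

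Vmn2r6-low cells were strong in Vmn2r1, from 38 to 97 counts with a median of 58, and Vmn2r1 exceeded each of Vmn2r2 to Vmn2r6 in 19 of 19. They entered through Vmn2r2, which ran from 10 to 29 counts with a median of 19 and was alone at 10 or more in 13 of them. Vmn2r3 reached 10 counts in 6 of the 19, Vmn2r4 in 3 and Vmn2r5 in 0. Vmn2r2 stood at a median of 30.3% of the Vmn2r1 count in Vmn2r6-low cells (13.7–74.4) and 10% in Vmn2r1-only cells (0–33.3), so the ranges overlapped. Sequence shared by the genes bears on low Vmn2r2 counts beside high Vmn2r1. The coding sequences of Vmn2r1 and Vmn2r2 are 88.3% identical, and 29% of the 50-base words in the last 500 bases of Vmn2r2 transcripts occur in Vmn2r1, while 0 of 451 such words of Vmn2r1 occur in another family C gene. The part of reads assigned to the wrong gene in these counts was not tested.

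Vmn2r6-positive cells had less Vmn2r1, from 0 to 45 counts with a median of 19, and 16 of 25 reached 10. Vmn2r1 was below the lowest Vmn2r6-low cell in 23 of the 25, and Vmn2r6 exceeded Vmn2r1 in 20. Most expressed several other family C genes. Vmn2r4 reached 10 counts in 21 of the 25 cells, Vmn2r2 in 17, Vmn2r5 in 12 and Vmn2r3 in 10, and 7 cells had all 5 of Vmn2r2 to Vmn2r6 at 10 or more. Vmn2r6 stood alone in 3 cells. Of the transcript words of Vmn2r5, 40.8% occur in receptors outside family C, against 10.2% or less for the other family C genes. A part of the Vmn2r5 counts could therefore belong to those receptors. Vmn2r4 and Vmn2r6 have coding sequences 96.8% identical and share 14.4% and 14.6% of their transcript words. Of the words in the last 500 bases, 31.8% of those of Vmn2r4 occur in Vmn2r6 and 18.4% the other way. Their separate counts are therefore uncertain. Vmn2r2 to Vmn2r6 together made a median of 94.5% of family C counts in Vmn2r6-positive cells (44.4–100), 38.3% in Vmn2r6-low cells (24.7–52.6) and 12% in Vmn2r1-only cells (0–47.8). All 6 family C genes in the table lie on chromosome 3, from Vmn2r1 (GRCm38 chr3:64081547-64109484, plus strand) to Vmn2r6 (chr3:64531310-64565830, minus strand).

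Depth was alike across the groups. Vmn2r1-only cells held a median of 155204 counts (95561–212718) and Vmn2r2-to-6 cells 150082 (80016–235382), and after thinning to 50000 counts a median of 4721.5 and 4867.5 genes were above 0. The mitochondrial share had medians of 1.28% and 1.24%, with the highest value of 4.26% in a Vmn2r6-positive cell. Vmn2r1-only cells lay unevenly on the chip, with 12 in chambers whose title number is 1 to 10 and 4 in those with 11 to 20, against 24 and 20 of the Vmn2r2-to-6 cells, and the numbers stand for nothing that the labels explain. Title row 40 held 4 of the 19 Vmn2r6-low cells.

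Sums of cell type markers are given as a description. They include genes that the rule used, Gnao1 among the basal, Gnai2 among the apical and Sox2 among the sustentacular markers. Gnao1 alone had medians of 49.4 per 100000 in Vmn2r1-only and 52.4 in Vmn2r2-to-6 cells. Krt18, not used by the rule, had medians of 51.4 and 50.5. The 5 basal markers (Gnao1, Tfap2e, Robo2, Krt8 and Krt18) summed to a median of 141.8 per 100000 counts of the cell in Vmn2r1-only cells (69–207.3) and 176.6 in Vmn2r2-to-6 cells (106.9–330.6). The 6 apical markers summed to 12.4 (3.0–77) and 11.1 (3.55–68.3) on the same scale, against a median of 212.97 in apical cells. In counts, progenitor markers reached at most 1 count in a cell. Cldn5, Kdr and Flt1 of endothelium and Krt14 and Trp63 of horizontal basal cells were at 0 in both. Pecam1, the remaining endothelial marker, reached 20 counts in a Vmn2r1-only cell and at most 5 in a Vmn2r2-to-6 cell. Summed sustentacular markers had medians of 4.5 (0–82) and 2 (0–83), immune markers 2.5 (0–7) and 1 (0–44), and glial markers 0 (0–2) and 0 (0–38), with Fabp7 and Sparcl1 at 0. Young-neuron markers summed to 60.8 (11.8–395.5) and 67 (22.3–273.1) per 100000. The part of these cell types in the gene differences below was not tested.

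The specific receptor of each cell was not used by the rule. A receptor outside family C was called where it led with at least 10 counts and 50% of the V2R and Fpr counts outside family C, after correction for cross-talk between chambers. It was called in 15 of 16 Vmn2r1-only cells, 18 of 19 Vmn2r6-low cells and 24 of 25 Vmn2r6-positive cells, and it made a median of 90%, 93.6% and 83.4% of those counts. The Vmn2r1-only cells used 13 receptor genes, the Vmn2r6-low cells 16 and the Vmn2r6-positive cells 22. Most genes were called in 1 cell, and Vmn2r62, Vmn2r82 and Vmn2r92 were each called in 3 cells. Those of Vmn2r82 and of Vmn2r92 were 1 Vmn2r1-only and 2 Vmn2r6-low cells, and Vmn2r62 was called in 1 cell of each group. Vmn2r107 and Vmn2r53 were each called in 2 Vmn2r1-only cells, and Vmn2r42 and Vmn2r77 each in 2 Vmn2r6-positive cells.

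Vmn2r1-only and Vmn2r6-low cells drew in part on the same receptors. They shared 6 genes (Vmn2r62, Vmn2r82, Vmn2r90, Vmn2r92, Vmn2r93 and Vmn2r100), which are 46.2% of the 13 and 37.5% of the 16. The Vmn2r6-positive cells shared 1 gene, Vmn2r62, with the other groups together, or 4.35% of the 23 genes of those groups and 4.55% of their own 22. The 6 genes that the 2 sides of the rule shared were thus all in Vmn2r6-low cells. Because most receptor genes were called in only 1 cell, any 2 groups could share few genes, and whether these overlaps differ from that was not tested.

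The receptors also fell in different branches of the V2R family. Coding sequences of V2R genes formed 11 groups at 70% identity, of which 9 held called cells. The group with Vmn2r57 to Vmn2r63, Vmn2r90 to Vmn2r110 and Vmn2r124 (29 genes) held 10 Vmn2r1-only cells, 9 Vmn2r6-low cells and 1 Vmn2r6-positive cell. The group with Vmn2r28 to Vmn2r52 and Vmn2r111 to Vmn2r117 (33 genes) held 1, 0 and 10, and the group with Vmn2r8 to Vmn2r17 and Vmn2r84 to Vmn2r89 (18 genes) held 0, 0 and 7. Vmn2r65 to Vmn2r79 held 0, 1 and 4 cells, Vmn2r19 to Vmn2r27 held 1, 3 and 0, Vmn2r53 to Vmn2r56 held 2, 2 and 0, and Vmn2r80 to Vmn2r83 held 1, 2 and 0. At 70% identity 3 groups held both Vmn2r6-positive cells and others, and at 80% identity 2 of 12 groups with cells did. At 80%, 3 of 23 Vmn2r6-positive cells fell in a group that also held other cells, against 15 of 23 at 70%.

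**Figure D2:**
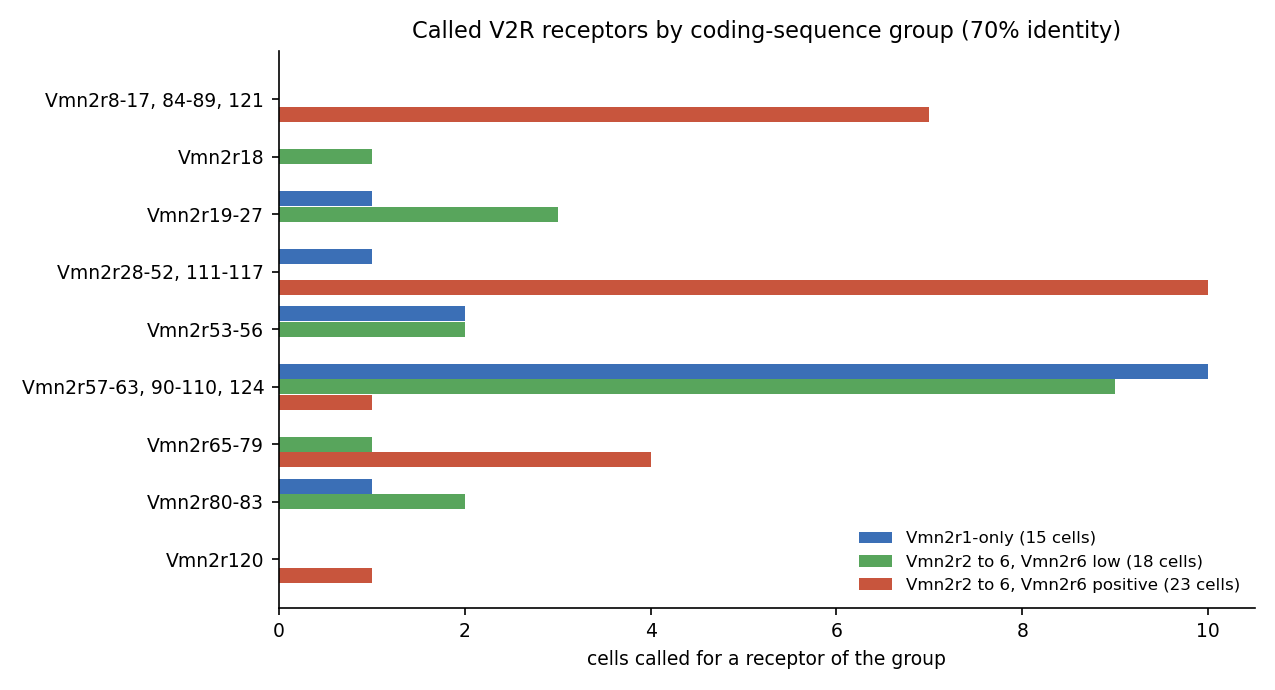
Number of cells called for a receptor of each coding-sequence group (70% identity), by cell group, with labels giving the ranges of gene numbers in a group. The 10 Vmn2r1-only and 9 Vmn2r6-low cells of the Vmn2r57 and Vmn2r90 branch stand beside 1 Vmn2r6-positive cell, and the Vmn2r28 branch holds 10 Vmn2r6-positive cells.

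Position on the chromosomes followed the same lines in part, since related receptors lie together. The stretch of chromosome 17 from 17703747 to 21314912 (GRCm38, 52 receptor genes) supplied the receptor of 8 Vmn2r1-only, 7 Vmn2r6-low and 1 Vmn2r6-positive cells. The stretch of chromosome 7 from 7231327 to 13220657 (69 genes) supplied 2, 2 and 8, and chromosome 7 from 84935565 to 87044941 (21 genes) supplied 0, 1 and 4. These gene numbers include any Vmn1r and Fpr genes beside the V2R genes, while only V2R and Fpr genes could be called.

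At 70% identity 3 cells had a receptor of a branch held mainly by the other kind of cell. A Vmn2r6-low cell was called for Vmn2r65, which formed a group of its own at 80%. A Vmn2r1-only cell was called for Vmn2r115, of the Vmn2r28 branch, and had 11 counts of Vmn2r1, the minimum in its group. A Vmn2r6-positive cell was called for Vmn2r62, with 28 counts of Vmn2r1 and 25 of Vmn2r6. Fpr3, a formyl peptide receptor, had 67.8 counts per 100000 in a Vmn2r6-positive cell where it was called, and 75.1 in a Vmn2r1-only cell where it led without reaching 50%. In 57 of the other 58 cells Fpr3 was at 0.

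H2-Mv genes were among the genes with large folds between the 2 sides. For each gene the counts of a side were added up and scaled to that side's total without receptor genes. A gene was compared with at least 50 counts in all and 10 or more counts in 25% of the cells on either side, and passed the size rule with a fold of 2 overall and of 1.5 the same way in both ranges of title numbers. Of 6109 genes compared, 4.35% passed as higher in Vmn2r2-to-6 cells and 4.5% as higher in Vmn2r1-only cells, so 8.86% passed either way. The rule is one of size and sets no error rate. In counts simulated with each gene's own spread between cells, unchanged genes passed it in a number close to that found here, so a pass by itself does not show that a gene differs, and the folds of single genes are a description of these cells. The lower title range of that check rests on 12 Vmn2r1-only cells and the upper on 4. Of the 9 H2-Mv genes, 4 had enough counts to enter, and 3 of these passed as higher in Vmn2r2-to-6 cells and 0 as lower. A gene that enters only through the side where it is high must differ, so that count is a description.

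H2-M10.3 (GRCm38 chr17:36365003-36368417, minus strand) had 0, 0.30 and 17.1 counts per 100000 as the lowest, median and highest value in Vmn2r1-only cells. In Vmn2r2-to-6 cells the same values were 0, 23.9 and 156.9. It summed to 75 [59–94, exact Poisson 95% interval] counts in 16 cells and 2639 [2539–2742] in 44, a 13-fold difference [10–16]. The groups overlapped, since 2 Vmn2r1-only cells reached 10 counts and 10 Vmn2r2-to-6 cells were at 0. H2-M10.5 had at most 2 counts in a Vmn2r1-only cell, while 19 of 44 Vmn2r2-to-6 cells reached 10, and the sums of 6 and 1859 counts differed by 6.81 on the log2 scale, with an interval that begins at a fold of 51.4. H2-M10.6 had 29 and 803 counts, 10 times as many after scaling [6.92–15], with 1 and 11 cells at 10 or more.

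Most counts of these genes lay in the Vmn2r6-positive cells, though H2-M10.5 was also 16-fold higher in Vmn2r6-low than in Vmn2r1-only cells [7.16–44.6]. Against the 35 other cells as 1 group, 3.67% of 5588 genes passed as higher in Vmn2r6-positive cells and 3.87% as lower, 7.53% in all. H2-M10.3 had 0, 65.8 and 156.9 counts per 100000 as the lowest, median and highest value in Vmn2r6-positive cells. It had 0, 0.44 and 69.2 in Vmn2r6-low cells. It reached 10 counts in 21 of 25 Vmn2r6-positive cells, in 4 of 19 Vmn2r6-low cells and in 2 of 16 Vmn2r1-only cells, and was 11-fold higher than in the other 35 [9.41–11.9]. As background, it had 10 counts or more in 10.7% of apical cells and 9.85% of empty chambers, so the 2 of 16 Vmn2r1-only cells are near that level.

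H2-M10.5 (chr17:36772910-36776234, plus strand) ran from 0 to 151.5 counts per 100000 in Vmn2r6-positive cells with a median of 9.68, and from 0 to 22.1 in Vmn2r6-low cells with a median of 1.55. It was 20.2-fold higher than in the other cells [16.8–24.5], with 13 of 25 Vmn2r6-positive cells and 6 of 19 Vmn2r6-low cells at 10 or more. H2-M10.6 ran from 0 to 87.9 counts per 100000 and reached 10 counts in 8 of 25 against 4 of 35 cells, a 13.1-fold difference [10–16.6]. H2-M10.3 and H2-M10.5 share 9.91% and 11.5% of their transcript words. Of the words in the last 500 bases, 13.1% of those of H2-M10.3 occur in H2-M10.5 and 18% the other way. A part of either count could therefore belong to the other.

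The remaining genes of the H2-M10 kind were in fewer cells. H2-M10.1 reached 10 counts in 6 Vmn2r6-positive cells, up to 124.9 counts per 100000, and in 1 Vmn2r1-only cell with 10 counts, and H2-M10.2 in 5 and 0. Neither had enough cells to be called. H2-M10.4 did not divide the same way. It was 2.13-fold higher in Vmn2r2-to-6 than in Vmn2r1-only cells [1.90–2.41], without passing the size rule. It reached 10 counts in 3 Vmn2r1-only, 5 Vmn2r6-low and 6 Vmn2r6-positive cells, with highest levels of 88.4, 164.5 and 121.8 counts per 100000, and its scaled fold of Vmn2r6-positive over other cells was 0.788 [0.722–0.859]. The 8 cells without Vmn2r6 were called for Vmn2r59, Vmn2r62, Vmn2r82 or Vmn2r92, and the 6 with it for Vmn2r36, Vmn2r42, Vmn2r49, Vmn2r62 or Vmn2r67.

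H2-M1, H2-M9 and H2-M11 were found on the other side of the Vmn2r6 gap. They reached 10 counts in 5, 4 and 3 of the 35 other cells and in 0 of the 25 Vmn2r6-positive cells, where they summed to 4, 3 and 0 counts. The cells that had them were called for Vmn2r82 or Vmn2r92. The Vmn2r1-only cell called for Vmn2r92 had 0 counts of each. In the 3 Vmn2r82 cells, 1 Vmn2r1-only and 2 Vmn2r6-low, H2-M1 had 75.7, 86.6 and 101.1 counts per 100000. H2-M9 had 111.4, 102.8 and 108.8 and H2-M11 had 49.8, 38 and 34.3 in the same cells. The 2 Vmn2r6-low cells with Vmn2r92 had 16.5 and 30.5 counts per 100000 of H2-M1. H2-M9 was at 37.6 in the latter of them and at 0 in the other, as H2-M11 was in both.

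H2-Mv levels are described here by group and by the receptor called. Most receptors were called in 1 cell, and a part of the receptor apart from the group was not tested. At least 1 H2-Mv gene reached 10 counts in 5 of 16 Vmn2r1-only cells, 8 of 19 Vmn2r6-low cells and 21 of 25 Vmn2r6-positive cells, and in 17.3% of apical cells. The summed H2-Mv level had medians of 3.06 (0–354.9), 3.45 (0–459.9) and 103.4 (0.47–413.4) counts per 100000. At least 2 genes reached 10 counts in 1, 6 and 16 cells. H2-M10.1, H2-M10.5 and H2-M10.6 were each above 60 counts in 4 Vmn2r6-positive cells, which were called for Vmn2r34, Vmn2r42, Vmn2r89 and Vmn2r-ps159. The cell called for Vmn2r62 among the Vmn2r6-positive cells had 121.8 counts per 100000 of H2-M10.4 and 12 of H2-M10.3, and the Vmn2r1-only cell called for Vmn2r115 had 17.1 of H2-M10.3.

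**Figure D3:**
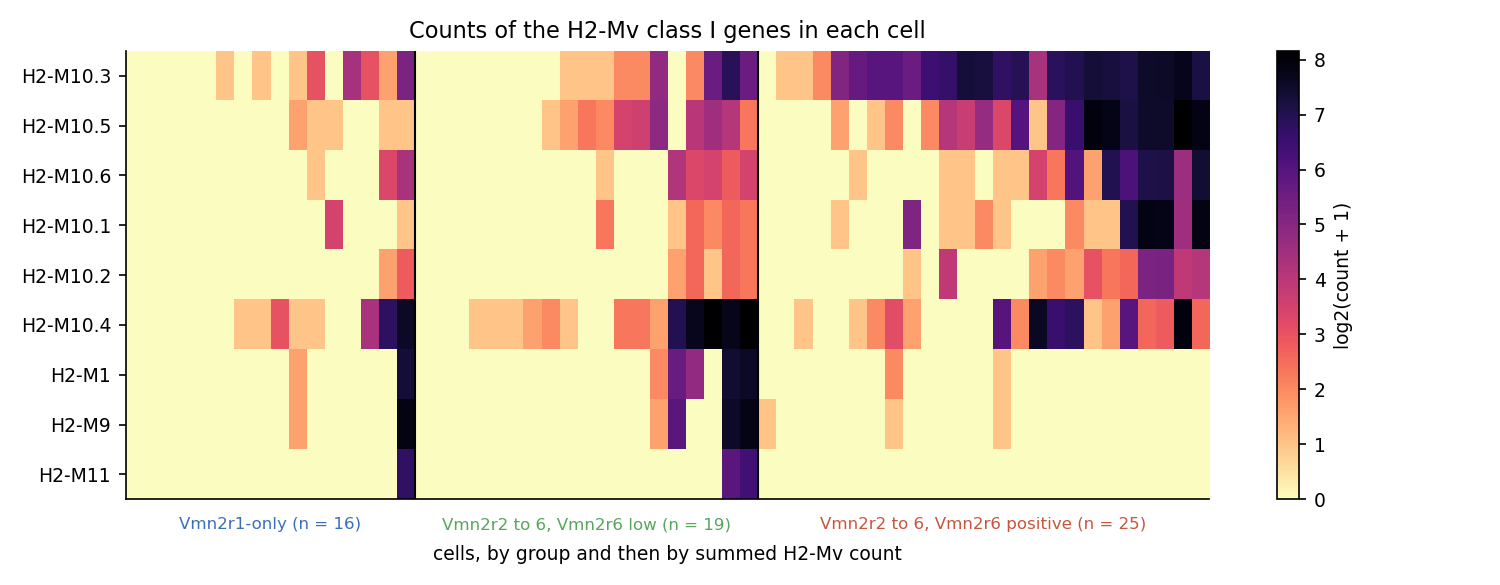
Counts of 9 H2-Mv genes (rows) in the 60 cells (columns), as log2(count + 1), with cells ordered within each group by their summed H2-Mv count. H2-M10.3 is dark across most of the 25 Vmn2r6-positive cells, and H2-M1, H2-M9 and H2-M11 are dark only in cells of the other 2 groups.

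Genes outside these families also passed by Vmn2r6. Tenm2, a teneurin that joins synaptic partners, had 0, 20.2 and 60.7 counts per 100000 as the lowest, median and highest value in Vmn2r6-positive cells. It reached 10 counts in 17 of 25 of them, in 2 of 16 Vmn2r1-only cells and in 0 of 19 Vmn2r6-low cells, and its summed counts were 11.4-fold apart after scaling [9.28–14.2]. Pou2f1, the octamer-binding transcription factor Oct-1, had 0, 21 and 109.9 counts per 100000 there, with 13 of 25 cells at 10 counts or more against 5 of 35, a 10-fold difference [8.84–12.5]. Tppp3, which stabilises microtubules, had 0, 43.9 and 84.1 counts per 100000, with 16 of 25 cells against 5 of 35 and a 5.84-fold difference [5.16–6.62]. The groups overlapped for each, and Tenm2 and Pou2f1 were not limited to basal cells, since they reached 10 counts in 42.3% and 24.6% of apical cells.

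Lgals9, which encodes galectin-9, was 3.20-fold higher in Vmn2r6-positive cells [2.87–3.56], with 19 of 25 cells against 14 of 35 at 10 counts. Wfs1, an endoplasmic reticulum membrane protein, was 3.65-fold higher [3.16–4.21], and Rab3c, a GTPase of synaptic vesicles, 4.14-fold [3.66–4.69]. Ift172, a subunit of the intraflagellar transport machinery, was 2.72-fold higher [2.43–3.04]. Cmah, which hydroxylates sialic acid, and Traf3ip3 had 10 or more counts in 9 and 8 Vmn2r6-positive cells and 0 counts in the other 35. Set against a floor of 3 counts over that group, they were 161.9-fold and 175.7-fold higher, values that rest on the floor and are not lower bounds. Cmah also reached 10 counts in 12.5% of apical cells. Duxbl1 and Duxbl2 also passed, and since they share 93.5% and 92.5% of their transcript words they are not told apart.

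Among the genes that passed as lower in Vmn2r6-positive cells, Lrrn1, a neuronal leucine-rich repeat protein, had 0, 0 and 20 counts per 100000 in Vmn2r6-positive cells. In the other 35 it had 0, 12.9 and 46.9, so that 2 of 25 cells against 19 of 35 reached 10 and the other cells were 6.83-fold higher [5.42–8.71]. Lrrn1 reached 10 counts in 13 of 19 Vmn2r6-low and 6 of 16 Vmn2r1-only cells, with medians of 14.2 and 3.06 per 100000. It did not pass between the 2 sides of the rule. Ildr2 was 4.14-fold higher in the other cells [3.50–4.92], with 4 of 25 against 21 of 35 cells. Pcdh10, a protocadherin, was 7.26-fold higher there [5.62–9.51] and Fam189b 5-fold [4.01–6.29]. Dner, a Notch ligand-like protein of neurons, was 5.22-fold higher [4.28–6.43] and Car2, carbonic anhydrase 2, 2.69-fold [2.29–3.17]. Scn3b, a sodium channel beta subunit, was 2.21-fold higher [1.99–2.46]. Slc30a6, a zinc transporter, had at most 2 counts in a Vmn2r6-positive cell and reached 10 in 15 of the other 35, a 73.8-fold difference whose interval begins at 31.4.

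**Figure D4:**
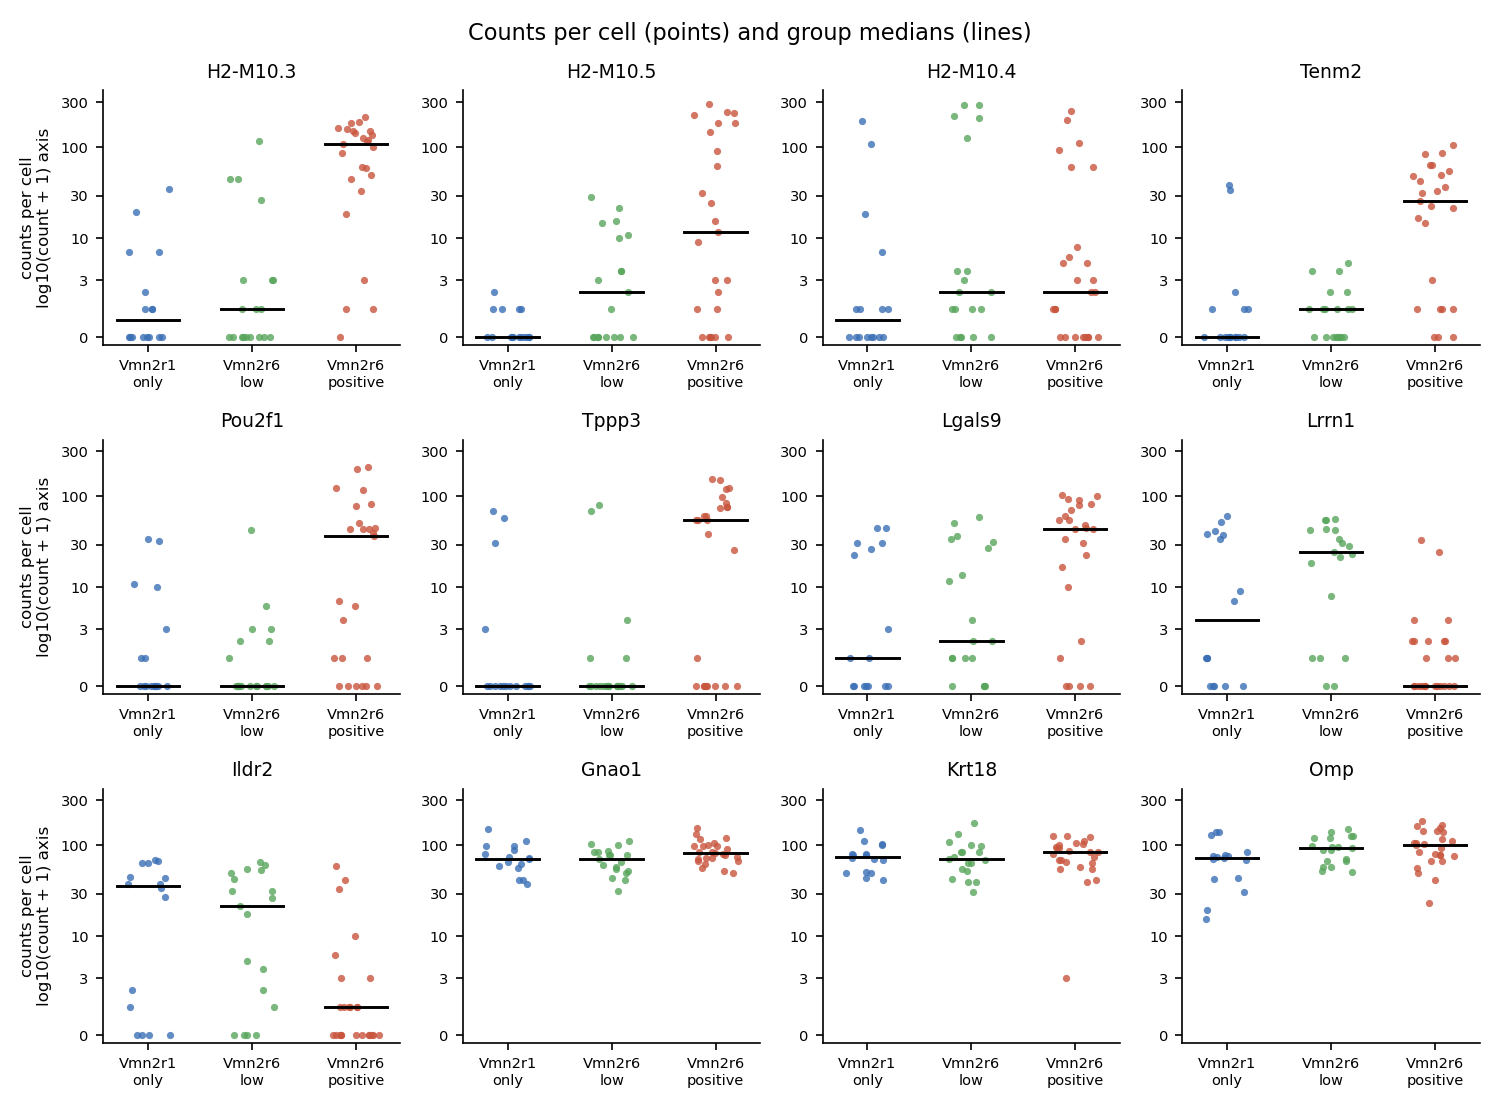
Counts per cell (points, on log10(count + 1) axes) and group medians (lines) of 12 genes in 16 Vmn2r1-only, 19 Vmn2r6-low and 25 Vmn2r6-positive cells. H2-M10.3, Tenm2, Pou2f1 and Tppp3 have their medians at 26 counts or more in Vmn2r6-positive cells and at 1 or less in the others, Lrrn1 and Ildr2 lie lower there, and Gnao1, Krt18 and Omp overlap throughout.

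Other genes passed between the 2 sides of the rule. Where 10 counts in 50% of the cells of a side were asked for, 34 and 42 genes passed. Rab4a, a GTPase of endosome recycling, had 1 count in 16 Vmn2r1-only cells and 10 or more in 12 of 44 others, a fold of 117.9 [21–4670]. Hps4 and Ptk2, focal adhesion kinase, each had 3 counts in the Vmn2r1-only cells and were 63.4-fold [21.6–308.4] and 53.3-fold higher [18.1–259.3]. Actr3b, an actin-related protein, was 3.54-fold higher [2.90–4.37], Carns1, carnosine synthase, 3.20-fold [2.68–3.84] and Tmem65 3.46-fold [2.83–4.26], each at 10 counts in 24 or 26 of 44 cells. Zfp62 was 4.72-fold higher in Vmn2r1-only cells [4.04–5.53], where 9 of 16 cells reached 10 counts against 7 of 44, and Rpia, an enzyme of the pentose phosphate pathway, 63.6-fold [31.6–149.5] in 5 against 0 cells.

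The calls of the 2 comparisons, which share their cells, overlapped in 53 higher genes (19.9% of those between the sides and 25.9% of those by Vmn2r6) and 40 lower genes (14.5% and 18.5%). Among them were H2-M10.3, H2-M10.5, H2-M10.6, Tenm2, Pou2f1, Tppp3, Lgals9 and Ildr2. The plot of all genes compared by Vmn2r6 shows where they lie.

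**Figure D5:**
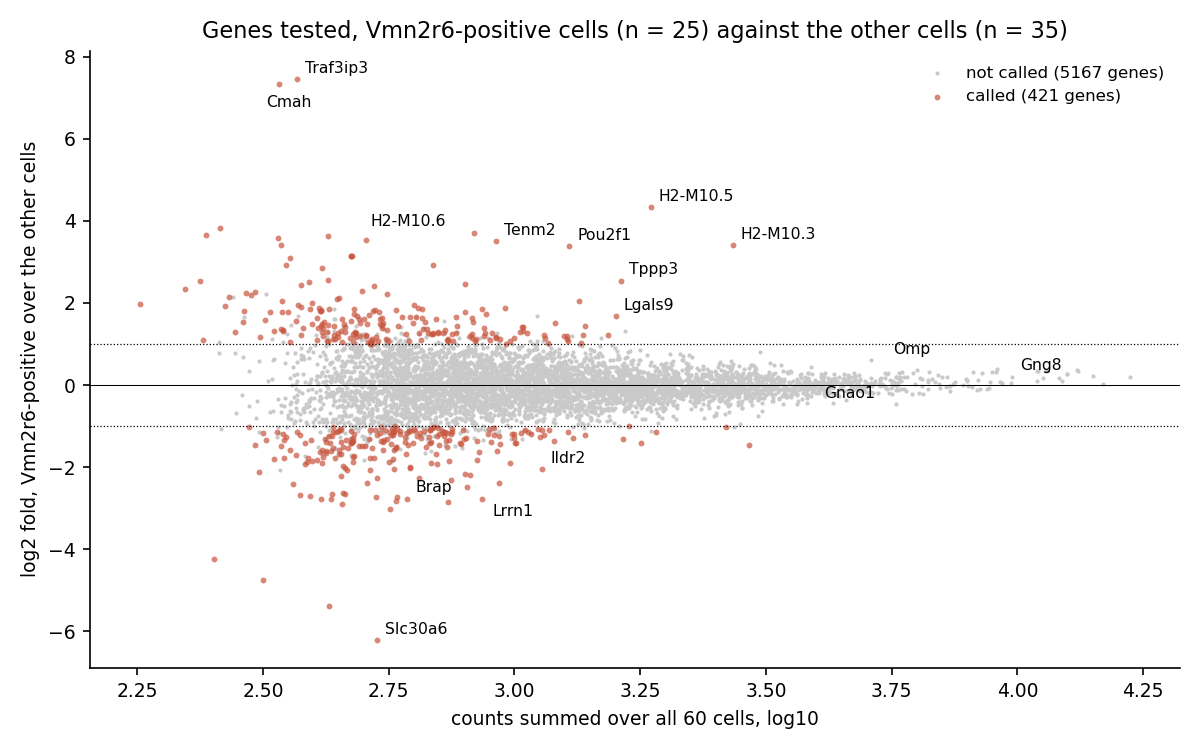
log2 fold of Vmn2r6-positive (n = 25) over the other cells (n = 35) against the log10 of the counts summed over 60 cells, for the 5588 genes compared, with genes that passed in red and dotted lines at a fold of 2. H2-M10.3, H2-M10.5, H2-M10.6, Tenm2, Pou2f1 and Tppp3 stand above 2 on the log2 scale, and genes with many counts, such as Gnao1, Omp and Gng8, lie near 0.

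The other gene lists are set beside the 8.86% of all genes compared that passed between the sides, a share that several of the counts here are near. Of the genes compared, 2 of 17 axon guidance and adhesion genes passed (Tenm2 and Tenm4, both higher in Vmn2r2-to-6 cells), as did 1 of 18 endoplasmic reticulum chaperones (Creld2, higher), 1 of 12 transcription factors (Pou2f1, higher) and 1 of 13 genes of calcium transduction (Plcb2, lower). Of 9 genes tied to receptor choice and feedback, Eif2ak3, the kinase PERK, passed as higher and Setdb1, a histone methyltransferase, as lower. None of 7 basal neuron genes, 7 G protein genes, 11 maturation genes, 11 potassium and sodium channels, 9 synaptic genes, 4 classical class I genes, 5 activity genes, 3 detoxification genes or 75 ribosomal protein genes passed. The median log2 fold was 0.43 over the basal neuron genes, -0.32 over the genes of calcium transduction and -0.65 over the activity genes. Over all genes compared it was -0.04. Omp was 1.33-fold higher in Vmn2r2-to-6 cells [1.25–1.42], Krt8 1.6-fold [1.46–1.76] and B2m, the class I light chain, 1.14-fold [1.07–1.21], all short of a fold of 2. Gap43, a marker of young neurons, reached 10 counts in 2 of 16 and 13 of 44 cells.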

How the data were processed

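The data were 1 table of counts of 5-base molecular identifiers for 28963 genes in 800 chambers of 1 chip. The authors deposited these counts without normalization. The submitters' processing notes name GRCm38 (mm10), featureCounts 1.6.1, STAR 2.5.4b, SAMtools 1.5, Subread, bcl2fastq and UMI-tools 0.5.3, with no order or settings. The name of the deposited counts holds the words pseudogenes, multimapping and fractional, so reads matching several genes appear to have been kept in fractions. How such reads were shared among the genes is not given in the sources used here. 1 further column of the table was not used. The labels' capture state gave 394 single-cell chambers, 272 of them apical by Gnai2, and 325 empty ones. A level per 100000 is a gene's count over all counts of its cell. No doublet caller was run, and chambers labelled as holding several cells were left out by their label.

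Cells, lists and members were chosen with earlier results of these data known, and the division by Vmn2r6 was made after the counts were seen. Folds compare summed counts scaled to the total without Vmn1r, Vmn2r and Fpr genes, with exact conditional binomial 95% intervals, and a side with 0 counts was set to 3. Named genes were the 15 largest folds each way, H2-Mv genes, Fpr3, Gnao1, Krt8, Krt18, Omp, Gap43, B2m, the most called receptors and list members that passed; 1 gene that this rule named is not reported here. Genes passing in 50% of the cells of a side were added after their values were seen. Receptor counts were kept at 3 times the 75th percentile, plus 5, of chambers that share the title row or the number, and receptors sharing 1% of 50-base words with the leading receptor were left out of the share. Groups by protein identity had been planned but no protein table was used here, so coding sequences of 121 V2R genes from GENCODE vM21 were aligned with MAFFT 7.526 and joined by average linkage. Promoters came from RefSeq. Alternatives changed the minima, scaling, chambers and thinning. Scripts ran in Python 3.11.15 with pandas 2.3.3 and SciPy 1.17.1 and were tested on simulated data. The genes Trpc2, S100b, Sox10, Mup4, Epha6 and the hemoglobin genes were not analysed here.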

Additional observations from a re-analysis of the deposited data

Results flagged for a closer look

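Among the 6 basal cells with neither Vmn2r1 nor Vmn2r2 to Vmn2r6 at 10 counts, 1 cell stood far below the other 5, with a total of 40788 counts and 3820 genes above 0. Its gap to the nearest cell was over the limit of Dixon's test for 6 values, which flags about 1 in 20 groups by chance. These 6 cells entered no comparison of genes.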

How the results depend on the processing

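No paired analysis was possible because the chambers of 1 chip carry no replicate numbers and no test was made. The genes higher in Vmn2r2-to-6 and in Vmn2r1-only cells were 4.35% and 4.5% of the genes compared. They were 11.9% and 6.85% with no minimum share of cells, where 63.5% of the passing genes were higher in Vmn2r2-to-6 cells against 49.2%, and 1.11% and 1.37% at 50% of cells. In title numbers 1 to 10 alone they were 9.87% and 10.07%, in 11 to 20 alone 15.2% and 22.1%, with 40.8% of the passing genes higher in Vmn2r2-to-6 cells, and after thinning 2.78% and 3.77%. Without the highest cell of each gene, 2.85% passed as higher in Vmn2r1-only cells. For Vmn2r6-positive cells, the 3.67% higher and 3.87% lower genes became 7.52% and 9.16% with no minimum share, 1.42% and 1.45% at 50% of cells, 12.4% and 9.6% in numbers 1 to 10, 9.95% and 15.5% in 11 to 20, and 2.88% and 2.21% after thinning. Lower genes were 6.01% without cells with Gap43 of 10 counts or more and 7.44% without Vmn2r6-positive cells with Vmn2r1 of 20 or more. Fewer genes entered under thinning and the 50% share. Within 1 range of title numbers there were fewer cells, and the fold of 1.5 in both ranges was not asked for. The cause of these shifts was not tested.

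Which genes passed between the sides depended on the family C minimum. A minimum of 5 kept 56% of the higher and 46.9% of the lower genes and a minimum of 20 kept 25.6% and 19.6%, while by Vmn2r6 a minimum of 20 kept 80.5% and 69.9%. At 20, Cacna2d1, Mllt3 and Rabgef1 reversed between the sides, to log2 folds of -0.20, -0.021 and -1.06. H2-M10.3 passed in 19 of 19 alternatives in both comparisons, and H2-M10.5, Tenm2, Pou2f1 and Tppp3 in 19 of 19 by Vmn2r6. H2-M10.6 passed in 14 of 19 by Vmn2r6 and 12 of 19 between the sides. With no minimum share, 5 H2-Mv genes were higher in Vmn2r6-positive cells in place of 3. At 30% of receptor counts, 2 receptors (Fpr3 and Vmn2r62) were in both Vmn2r6-positive and other cells in place of 1. At 80% identity, 3 Vmn2r6-positive cells lay in groups of others in place of 15. Without thinning, the median genes above 0 were 6123.5 and 6109. The sides held 4 to 21 and 20 to 48 cells over the alternatives, with the fewest in title numbers 11 to 20 alone. Many genes had few counts in 16 and 44 cells, which limits what their folds show.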
